A study of Mus musculus with 12 samples.

Results

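The genes described here make and unmake the fat store of the liver cell. They are 10 genes for lipid droplet coats and triglyceride turnover, taken by symbol from a table of 24411 genes, and all 10 were found there. The coat genes are *Plin2*, *Plin3*, *Plin4* and *Plin5*, the droplet fusion genes are *Cideb* and *Cidec*, the lipase genes are *Pnpla2* and *Pnpla3*, and the genes of the last step of triglyceride synthesis are *Dgat1* and *Dgat2*. Their poly(A) RNA was measured by RNA-seq in whole livers of 9 mice, 3 of each of 3 genotypes, at 3 months of age on a C57BL/6 background. All 9 mice carried floxed *Atg7*. The cont. mice were Atg7flox/flox without Cre. Atg7-KO mice were Atg7flox/flox;Alb-Cre, in which the albumin promoter drives Cre in hepatocytes, so that other liver cells keep the autophagy gene *Atg7*. Atg7-KO;p62T352A mice carried in addition p62T352A, a threonine-to-alanine exchange, on both alleles of the endogenous p62 gene, *Sqstm1*, introduced by prime editing of embryonic stem cells in the part of p62 that binds KEAP1. In the study, loss of autophagy lets p62 accumulate in bodies that hold KEAP1, the inhibitor of the transcription factor NRF2, and the exchange was chosen to remove KEAP1 from these bodies. The comparisons asked which transcripts change when *Atg7* is lost and which of these depend on the KEAP1-binding site of p62. The 3 p62T352A mice with intact *Atg7* were not analysed here, so an effect of the exchange alone cannot be told apart from its effect in the absence of *Atg7*.

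A lipid droplet is a core of triglyceride and sterol esters under a single layer of phospholipid, and it is the form in which hepatocytes hold fatty acids between uptake, oxidation and secretion as lipoprotein. Perilipins coat the surface and limit the access of lipases, proteins of the CIDE family sit where droplets touch and pass lipid from the smaller to the larger one, and DGAT enzymes add the last acyl chain that turns diacylglycerol into triglyceride. Adipose triglyceride lipase, the product of *Pnpla2*, removes the first acyl chain again, and in the fed, healthy liver *Plin2* and *Cideb* are known as the main hepatocyte forms of their families, whereas *Cidec* and *Plin4* are better known from fat tissue.

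In GENCODE vM21 on GRCm38, *Plin3* (chr17:56277476-56292873), *Plin4* (chr17:56100591-56109803) and *Plin5* (chr17:56111601-56117596) lie on 1 chromosome. *Plin2* is at chr4:86648386-86670060, *Cideb* at chr14:55754050-55758458, *Cidec* at chr6:113424634-113435760, *Dgat1* at chr15:76502015-76511953 and *Dgat2* at chr7:99153658-99182719, and these 8 genes are on the minus strand. *Pnpla2* (chr7:141455198-141460743) and *Pnpla3* (chr15:84167837-84187236) are on the plus strand.

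The totals of expected counts were 9671080 to 23285132 in cont. mice, 16157269 to 18480553 in Atg7-KO mice and 16133620 to 17357172 in Atg7-KO;p62T352A mice. Levels are given as normalized CPM, the edgeR CPM after TMM scaling of the library sizes, and 13922 genes passed the filter on low counts, among them all 10 genes described here. Genes were called at a Benjamini-Hochberg adjusted p under 0.05 in edgeR's quasi-likelihood test together with a fold change over 1.5. *Atg7* itself was at 46.4, 44.2 and 55.4 normalized CPM in cont. mice 1 to 3, at 10.1, 9.57 and 12.0 in Atg7-KO mice and at 29.7, 27.4 and 29.5 in Atg7-KO;p62T352A mice. Both other genotypes were called below cont. for it, Atg7-KO mice with a log2 fold change of -2.20 ± 0.17 (SE, adjusted p = 2.55e-05) and Atg7-KO;p62T352A mice with -0.75 ± 0.16 (adjusted p = 0.0206), the latter lost without any 1 of the Atg7-KO;p62T352A mice (adjusted p = 0.0524 to 0.07). The 2 genotypes with Cre differed as well, since *Atg7* was called 2.73-fold higher in Atg7-KO;p62T352A than in Atg7-KO mice (1.45 ± 0.17, adjusted p = 0.000164), a call kept in all 18 refits. The comparison of these genotypes therefore holds a difference in the targeted transcript beside that in p62, and its part in the values below was not tested. The *Atg7* counts cover the whole gene and not the floxed exon alone. They are RNA and not protein. By immunoblot, the study found almost no ATG7 protein in livers of either genotype with Cre. With the near absence of LC3-II, the study read this as a block of autophagy in both. All 5 hepatocyte markers were below cont. in Atg7-KO livers by the same call, with summed levels of 34200 to 36300 against 68000 to 118000 normalized CPM, and they summed to 104000 to 119000 in Atg7-KO;p62T352A mice. Of 7 macrophage markers 6 were called higher in Atg7-KO mice, as were 4 of 6 stellate cell and 3 of 4 cholangiocyte markers, whose sums were 712 to 775, 304 to 376 and 797 to 993 normalized CPM there. In cont. mice these sums were 249 to 298, 102 to 118 and 27.2 to 45.9, and in Atg7-KO;p62T352A mice 168 to 312, 139 to 193 and 140 to 236. Of 4 sinusoidal endothelial markers 2 were higher and 1 was lower by the call in Atg7-KO mice, with sums of 177 to 183 against 169 to 258 normalized CPM in cont. and 117 to 145 in Atg7-KO;p62T352A mice. In whole liver fewer cells of a type and less RNA per cell cannot be told apart, and the part of these shifts in the values below was not tested. *Xist* was below 2 normalized CPM in the mouse numbered 1 of each genotype and between 373 and 2015 in the other 6, so every genotype held both kinds of mice, and calls that changed without the 3 mice numbered 1 are named with the gene.

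The 10 genes covered a wide span of levels per kilobase of exon. In cont. livers *Cideb* at 192 ± 8.13 (SD, n = 3) and *Dgat2* at 189 ± 29.8 normalized CPM per kilobase stood highest, and their mice overlapped. *Plin2* followed at 77.7 ± 41.8, then *Pnpla2* at 31.3 ± 11.7 and *Plin5* at 24.7 ± 14.0, which overlapped each other. *Plin3* was at 13.1 ± 0.918, *Dgat1* at 8.31 ± 1.36 and *Plin4* at 8.20 ± 11.8 normalized CPM per kilobase. *Pnpla3* at 1.25 ± 0.816 and *Cidec* at 0.675 ± 0.254 were lowest and overlapped. In Atg7-KO livers the order at the top changed. *Plin2* stood first at 144 ± 4.28 normalized CPM per kilobase, above *Cideb* at 108 ± 10.9 and *Dgat2* at 78.1 ± 7.47, with no overlap among the mice of these 3 genes, and *Plin4* stood last at 0.886 ± 0.224. *Cidec*, last in cont. livers, stood at 6.32 ± 1.09 beside *Dgat1* at 5.75 ± 0.534, whose mice it overlapped. In Atg7-KO;p62T352A livers *Cideb* at 263 ± 33.6 and *Dgat2* at 128 ± 11.2 led again, *Plin2* followed at 77.6 ± 31.4, and *Cidec* was again last at 1.59 ± 1.27 normalized CPM per kilobase.

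**Figure D1:**
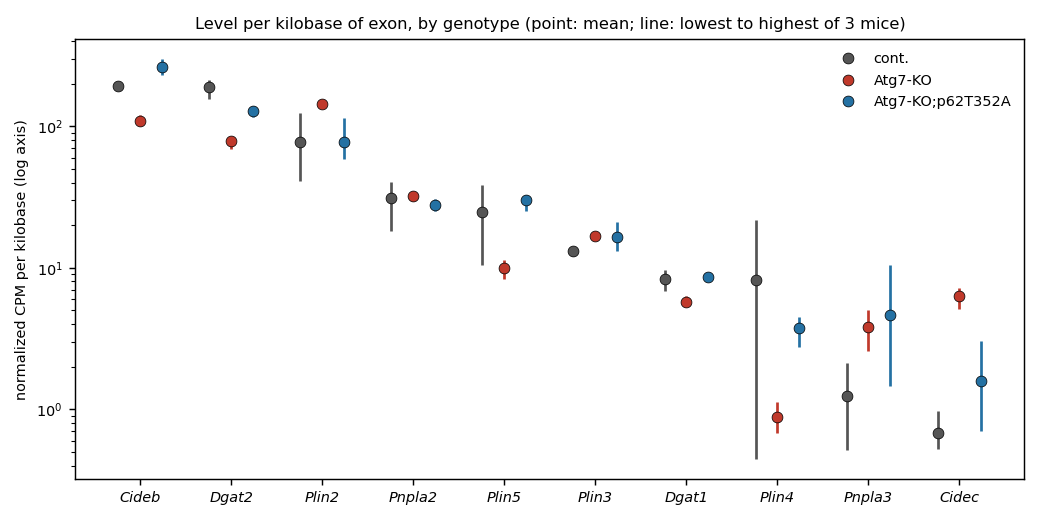
Level of each of the 10 genes in normalized CPM per kilobase of merged exon (log axis), ordered by the mean of cont. mice, where points are means and lines run from the lowest to the highest of 3 mice. *Plin2* is the highest gene in Atg7-KO livers at 144 and stands behind *Cideb* and *Dgat2* in both other genotypes, at 77.7 and 77.6, and *Cidec* runs from 0.675 in cont. to 6.32 in Atg7-KO livers.

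The share of each gene within its family was computed from the same scale. *Plin2* made up 75.8%, 48.3% and 62.3% of the summed level of the coat genes in cont. mice 1 to 3, 82.9%, 83.5% and 85.1% in Atg7-KO mice and 50.7%, 70.2% and 57.1% in Atg7-KO;p62T352A mice. All 3 Atg7-KO mice therefore lay above all 6 others, and the 2 other genotypes overlapped. The share of *Plin5* was 15.4% to 27.1% in cont., 4.80% to 6.62% in Atg7-KO mice and 19.95% to 27.7% in Atg7-KO;p62T352A mice. *Cideb* supplied 99.5% to 99.7% of the level of the fusion pair in cont., 93.4% to 95.9% in Atg7-KO mice and 99.0% to 99.7% in Atg7-KO;p62T352A mice. *Pnpla2* held 94.3% to 97.4%, 86.5% to 92.0% and 71.0% to 94.9% of the lipase pair in the same order, and *Dgat2* 94.2% to 96.7%, 91.6% to 93.9% and 93.4% to 93.8% of the DGAT pair. With 3 mice against 3 an exact permutation test cannot go below p = 0.1, and the shares were not tested. Taking the length of the longest transcript in place of all merged exons raised the mean share of *Plin2* in Atg7-KO livers from 83.8% to 90.2%.

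Among the coat genes *Plin5* fell in Atg7-KO livers and was higher again in Atg7-KO;p62T352A livers, *Plin2* lay highest in all 3 Atg7-KO mice without passing the test, and the call of *Plin4* rested on 1 cont. mouse. *Plin2*, which coats the bulk of hepatocyte droplets and whose protein is stabilized by bound lipid, was at 433, 241 and 145 normalized CPM in cont. mice 1 to 3, at 492, 500 and 521 in Atg7-KO mice and at 212, 400 and 206 in Atg7-KO;p62T352A mice. The 3 Atg7-KO mice were nearly alike and above all others, while the other genotypes spread widely and overlapped each other. Against cont. the log2 fold change was 0.89 ± 0.39 (SE, adjusted p = 0.0878), and between Atg7-KO;p62T352A and Atg7-KO it was -0.89 ± 0.39 (adjusted p = 0.0786). For Atg7-KO;p62T352A against cont. it was -0.00 ± 0.39, with a 95% interval from -0.87 to 0.86. Without cont. mouse 1, the highest of its group, *Plin2* was called higher in Atg7-KO mice at 1.39 (adjusted p = 0.00452), and without the 3 mice numbered 1 at 1.40 (adjusted p = 0.00978). The difference between Atg7-KO;p62T352A and Atg7-KO mice was called at -1.27 (adjusted p = 0.0326) without Atg7-KO;p62T352A mouse 2, the highest of that group, and also without cont. mouse 1 (-0.89, adjusted p = 0.0181), without cont. mouse 3 (-0.88, adjusted p = 0.0378) and in a fit of these 2 genotypes alone (-0.87, adjusted p = 0.0163).

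*Plin5* codes for the perilipin that ties droplets to mitochondria in tissues that burn fat. Its level was 52.3, 80.4 and 22.0 normalized CPM in cont. mice, 21.8, 23.5 and 17.5 in Atg7-KO mice and 68.6, 67.5 and 52.6 in Atg7-KO;p62T352A mice. The Atg7-KO and Atg7-KO;p62T352A mice did not overlap, whereas cont. mouse 3 lay within the range of the Atg7-KO mice. In Atg7-KO mice it was 2.46-fold below cont. (log2 fold change -1.30 ± 0.38, adjusted p = 0.0196) and 3.00-fold higher in Atg7-KO;p62T352A than in Atg7-KO mice (1.59 ± 0.38, adjusted p = 0.00677). The first call was lost without cont. mouse 2 (-0.93, adjusted p = 0.067), without Atg7-KO mouse 1 (-1.33, adjusted p = 0.0558) and without Atg7-KO mouse 3 (-1.19, adjusted p = 0.0748), and the second was kept in each of these fits. Against cont. the Atg7-KO;p62T352A mice differed by 0.29 ± 0.37 on the log2 scale, with a 95% interval from -0.55 to 1.12.

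*Plin4* lies next to *Plin5* on chromosome 17, on the same strand, with 1797 bases between them, and codes for a perilipin with a long run of repeats that covers small, new droplets. It was at 2.58, 126 and 13.5 normalized CPM in cont. mice, at 4.93, 6.49 and 3.92 in Atg7-KO mice and at 25.9, 15.9 and 23.3 in Atg7-KO;p62T352A mice. Cont. mouse 2 stood far above every other mouse and cont. mouse 1 below all of them, so that the cont. range enclosed both other genotypes. The fit gave a log2 fold change of -3.20 ± 1.06 between Atg7-KO and cont. (adjusted p = 0.0327), which became -0.65 (adjusted p = 0.38) without cont. mouse 2 and was not called either without Atg7-KO mouse 1 (adjusted p = 0.0918), mouse 2 (0.077) or mouse 3 (0.102) or in a fit of both genotypes alone (0.0748). The 3 Atg7-KO;p62T352A mice lay above the 3 Atg7-KO mice with a log2 fold change of 2.08 ± 1.02 (adjusted p = 0.111), which was called at 2.09 in the fit of those genotypes alone (adjusted p = 0.000108), at 2.09 without cont. mouse 1 (adjusted p = 0.0152) and at 2.09 without cont. mouse 2 (adjusted p = 0.00781). *Plin3*, a perilipin found in most cells that moves onto droplets from the cytosol, was not called in any comparison. It was at 52.6, 50.02 and 45.7 normalized CPM in cont. mice, 67.0, 59.3 and 64.1 in Atg7-KO mice and 80.0, 49.9 and 56.3 in Atg7-KO;p62T352A mice. The 3 Atg7-KO mice lay above the 3 cont. mice, but the log2 fold change of 0.36 ± 0.19 did not pass the test (adjusted p = 0.154), nor did that between Atg7-KO;p62T352A and Atg7-KO (-0.03 ± 0.19, adjusted p = 0.899, 95% interval -0.47 to 0.40).

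**Figure D2:**
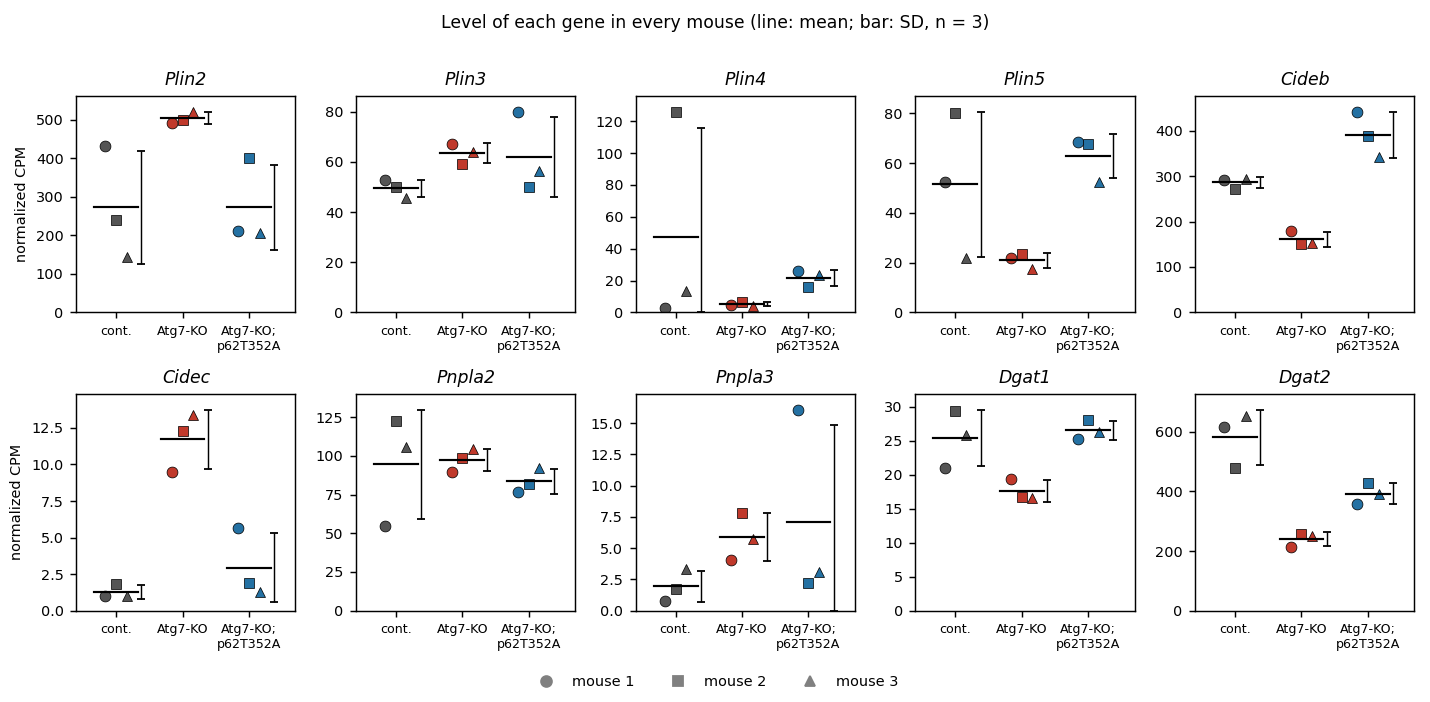
Normalized CPM of each of the 10 genes in every mouse on linear axes from 0, with circles, squares and triangles for mice 1, 2 and 3, a line at the mean and a bar of 1 SD (n = 3), drawn to 0 where it would pass below 0. *Cideb*, *Dgat2* and *Cidec* separate the Atg7-KO mice from both other genotypes, and *Plin4* shows 1 cont. mouse at 126 above all others.

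Both fusion genes changed in Atg7-KO livers, in opposite directions, and both moved back in Atg7-KO;p62T352A livers. *Cidec* codes for the strongest droplet fusion factor of the family, best known from adipocytes and from fatty liver. It had 17, 19 and 9 counts in cont. mice, 196, 299 and 314 in Atg7-KO mice and 79, 27 and 20 in Atg7-KO;p62T352A mice, which were 0.974, 1.80 and 0.989, then 9.48, 12.3 and 13.4, and then 5.64, 1.89 and 1.31 normalized CPM. The Atg7-KO mice did not overlap either other genotype, and Atg7-KO;p62T352A mouse 1 lay between the groups. *Cidec* rose 9.41-fold in Atg7-KO mice (log2 fold change 3.23 ± 0.53, adjusted p = 0.00115) and was 3.99-fold lower in Atg7-KO;p62T352A than in Atg7-KO mice (-2.00 ± 0.48, adjusted p = 0.00654). Leaving out any 1 of the 9 mice kept both calls, with log2 fold changes of 3.04 to 3.49 and of -2.87 to -1.63. Against cont. the Atg7-KO;p62T352A mice were not called (1.24 ± 0.54, adjusted p = 0.165), and that value was 0.36 (adjusted p = 0.593) without Atg7-KO;p62T352A mouse 1. The depth sets the limit for this gene, since its cont. level rests on 9 to 19 counts per mouse. Adipocytes were looked for through their markers. *Lep* had 0 counts in all 9 mice, *Adipoq* and *Plin1* had at most 5 and 3 counts in any mouse, and the 5 markers *Adipoq*, *Lep*, *Retn*, *Cfd* and *Plin1* summed to 0.567 to 0.974 normalized CPM in cont., 0.0853 to 0.29 in Atg7-KO mice and 0.131 to 2.07 in Atg7-KO;p62T352A mice. The range of Atg7-KO mice lay below that of cont. mice, and the range of Atg7-KO;p62T352A mice overlapped both. All of them rest on few counts. Atg7-KO;p62T352A mouse 1, the highest of its genotype for *Cidec*, had the highest of these sums, from 29 counts of *Cfd*, and the part of adipocytes in the level of *Cidec* was not tested. The sixth, *Car3*, which hepatocytes also express, was called lower in Atg7-KO mice (-3.77 ± 0.42, adjusted p = 0.00016).

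*Cideb*, the hepatocyte member of the family, needed for loading lipid onto very low density lipoprotein, was at 292, 272 and 294 normalized CPM in cont. mice, at 180, 151 and 153 in Atg7-KO mice and at 442, 389 and 342 in Atg7-KO;p62T352A mice. No mouse of any genotype overlapped another genotype, with Atg7-KO lowest, cont. between and Atg7-KO;p62T352A highest. In Atg7-KO mice it was 1.78-fold below cont. (log2 fold change -0.83 ± 0.17, adjusted p = 0.00399) and 2.43-fold higher in Atg7-KO;p62T352A than in Atg7-KO mice (1.28 ± 0.17, adjusted p = 0.000358), and both calls were kept with any 1 mouse left out. The Atg7-KO;p62T352A mice were above the cont. mice by 0.45 ± 0.17, which was not called (adjusted p = 0.121, 95% interval 0.07 to 0.84). Of the exon bases of *Cideb*, 1136 (76.3%) lie also in exons of *Nop9*, a gene for a pumilio-type RNA-binding protein on the opposite strand. The library kit is not named as one that marks strand and no strand setting was given in the sources used here, so reads from that stretch cannot be told apart. *Nop9*, chosen after this overlap was seen, was listed at 28.4, 36.0 and 32.1 normalized CPM in cont., 23.5, 25.4 and 27.6 in Atg7-KO and 53.5, 52.1 and 50.8 in Atg7-KO;p62T352A mice. It was not called between Atg7-KO and cont. mice (-0.34 ± 0.15, adjusted p = 0.097) and was called higher in Atg7-KO;p62T352A than in Atg7-KO mice (1.03 ± 0.15, adjusted p = 0.000552), the same direction as *Cideb*. *Nop9* was also called higher in Atg7-KO;p62T352A than in cont. mice (0.70 ± 0.15, adjusted p = 0.022), where *Cideb* was not called. That call was lost in a fit of those genotypes alone (0.68, adjusted p = 0.127). It was also lost without Atg7-KO mouse 2 or 3 or Atg7-KO;p62T352A mouse 1 or 3 (adjusted p = 0.0508 to 0.068). How the counts of this stretch were divided between *Cideb* and *Nop9* was not tested.

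Upstream sequence is shown for *Plin5*, *Cideb* and *Cidec*, the coat and fusion genes called in both comparisons with Atg7-KO mice, in opposite directions for *Cidec* and for the other pair. The stretches are from RefSeq on GRCm38.p6, the minus strand, 5′ to 3′, and end before the first base that GENCODE gives as exon. Capitals mark the nuclear receptor half-site AGGTCA, found in *Plin5* alone among them, and the 2 stretches of *Cidec* lie before its 2 RefSeq starts, which are 996 bases apart, the downstream one within the first intron of transcripts from the upstream start.
Plin5, chr17:56117597-56117798: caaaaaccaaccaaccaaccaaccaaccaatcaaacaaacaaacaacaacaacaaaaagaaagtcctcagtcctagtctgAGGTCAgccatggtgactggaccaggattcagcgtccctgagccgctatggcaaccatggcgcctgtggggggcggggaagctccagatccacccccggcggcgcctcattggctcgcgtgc
Cideb, chr14:55758459-55758674: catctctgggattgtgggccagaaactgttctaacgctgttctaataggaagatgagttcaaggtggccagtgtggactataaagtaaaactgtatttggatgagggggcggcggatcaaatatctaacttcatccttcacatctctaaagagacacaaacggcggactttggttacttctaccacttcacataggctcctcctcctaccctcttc
Cidec, upstream start, chr6:113435761-113436010: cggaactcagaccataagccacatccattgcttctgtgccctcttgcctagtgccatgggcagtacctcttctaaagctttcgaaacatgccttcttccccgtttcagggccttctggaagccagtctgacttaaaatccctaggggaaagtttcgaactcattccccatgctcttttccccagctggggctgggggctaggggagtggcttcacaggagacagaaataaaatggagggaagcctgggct
Cidec, downstream start, chr6:113434765-113435014: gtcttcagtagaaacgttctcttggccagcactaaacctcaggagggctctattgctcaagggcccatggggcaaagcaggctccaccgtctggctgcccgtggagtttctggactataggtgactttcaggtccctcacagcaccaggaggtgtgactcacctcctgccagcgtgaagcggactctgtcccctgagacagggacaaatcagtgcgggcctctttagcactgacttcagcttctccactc
The gene-level counts do not tell which start of *Cidec* the reads came from. In 250 bases before each start, on both strands, the half-site AGGTCA was in the promoters of *Plin2* (218 to 213 bases before the start) and *Plin5* (170 to 165 bases before the start whose stretch is shown), and in 14.0% of all 32851 RefSeq promoters. A direct repeat of this half-site with any 1 base between the copies, the peroxisome proliferator response element in its strict form, which contains the half-site, was in none of the 10 promoters of the 8 genes with an entry and in 0.0335% of all. The antioxidant response element core TGACNNNGC, to which NRF2 binds, was in 1 of them, that of *Cideb* (17 to 9 bases before the RefSeq start, within GENCODE's first exon), and in 10.2% of all. The cyclic AMP response element TGACGTCA was in that of *Pnpla3* (46 to 39 bases before the start) and in 1.55% of all, and the E-box CACGTG in none and in 6.02% of all. A match is a description of these letters and not a bound site.

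Of the genes for the last step of triglyceride synthesis, *Dgat2* fell in Atg7-KO livers and was partly higher again in Atg7-KO;p62T352A livers, and *Dgat1* moved in the same order by less. *Dgat2*, which esterifies newly made fatty acids at the endoplasmic reticulum and the droplet, was at 615, 478 and 653 normalized CPM in cont. mice, at 215, 258 and 250 in Atg7-KO mice and at 359, 428 and 391 in Atg7-KO;p62T352A mice. The 3 genotypes did not overlap, and the Atg7-KO;p62T352A mice lay between the others. In Atg7-KO mice it was 2.42-fold below cont. (log2 fold change -1.27 ± 0.19, adjusted p = 0.000704) and 1.63-fold higher in Atg7-KO;p62T352A than in Atg7-KO mice (0.71 ± 0.19, adjusted p = 0.0109). The first call was kept in all 18 refits computed for single genes. The second was lost under upper-quartile normalization, which gave 0.57, just under the fold threshold (adjusted p = 0.0332), and without Atg7-KO mouse 1 (0.63, adjusted p = 0.0559). Against cont. the Atg7-KO;p62T352A value was -0.57 ± 0.19 (adjusted p = 0.0799, 95% interval -0.99 to -0.15), and DESeq2 called it lower at -0.62 (adjusted p = 0.00761). *Dgat1*, the enzyme that also re-esterifies fatty acids taken up or set free by lipolysis, was at 21.0, 29.3 and 25.8 normalized CPM in cont., 19.4, 16.7 and 16.6 in Atg7-KO and 25.3, 28.0 and 26.2 in Atg7-KO;p62T352A mice. All Atg7-KO mice lay below all others. The log2 fold change against cont. was -0.53 ± 0.17 (adjusted p = 0.0285), a change under 1.5-fold that was therefore not called. It was called without cont. mouse 1 (-0.65, adjusted p = 0.00214), without Atg7-KO mouse 1 (-0.61, adjusted p = 0.0485) and without the 3 mice numbered 1 (-0.73, adjusted p = 0.00446). The 1.51-fold difference between Atg7-KO;p62T352A and Atg7-KO mice was called (0.59 ± 0.17, adjusted p = 0.0147), but it sat at the fold threshold and 8 of 18 alternatives took it below a limit, with values down to 0.46, among them those without Atg7-KO mouse 2 (0.56, adjusted p = 0.0641), without Atg7-KO mouse 3 (0.55, adjusted p = 0.0639) and without Atg7-KO;p62T352A mouse 2 (0.56, adjusted p = 0.0382).

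The lipase genes were not called in any comparison. *Pnpla2* was at 54.9, 123 and 106 normalized CPM in cont. mice, at 89.8, 98.5 and 104 in Atg7-KO mice and at 76.7, 81.5 and 92.2 in Atg7-KO;p62T352A mice, and the 3 genotypes overlapped. Its log2 fold change was 0.05 ± 0.27 between Atg7-KO and cont. (adjusted p = 0.898, 95% interval -0.55 to 0.64) and -0.22 ± 0.27 between Atg7-KO;p62T352A and Atg7-KO (adjusted p = 0.497, 95% interval -0.82 to 0.37). The first interval reaches past 1.5-fold on its upper side and the second on its lower side, so changes of that size are not shown to be absent. *Pnpla3*, a paralog known for binding the coactivator of *Pnpla2*'s product and for a common human variant in fatty liver, was at 0.802, 1.70 and 3.30 normalized CPM in cont., 4.01, 7.85 and 5.72 in Atg7-KO and 16.1, 2.24 and 3.07 in Atg7-KO;p62T352A mice. The Atg7-KO mice lay above the cont. mice, and Atg7-KO;p62T352A mouse 1 stood far above the other mice of its genotype. The log2 fold change of 1.66 ± 0.77 against cont. was not called (adjusted p = 0.102), and it was called in a fit of both genotypes alone (1.64, adjusted p = 0.0398), without Atg7-KO;p62T352A mouse 1 (1.65, adjusted p = 0.0233) and without the 3 mice numbered 1 (1.46, adjusted p = 0.00973). The value of Atg7-KO;p62T352A against Atg7-KO was 0.28 ± 0.70 (adjusted p = 0.755). It turned to -1.14 (adjusted p = 0.107) without Atg7-KO;p62T352A mouse 1 and to -1.35 (adjusted p = 0.0107) without the 3 mice numbered 1. Of the exon bases of *Pnpla3*, 105 (6.78%) are shared with the transcript Gm49513 on the same strand, between which reads cannot be told apart.

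Counted over the set, 5 of the 10 genes were called between Atg7-KO and cont. livers, *Cidec* higher and *Plin4*, *Plin5*, *Cideb* and *Dgat2* lower, where 43.7% of all genes tested were called. Of all genes 21.6% were called higher and 22.1% lower. The share of the 10 was thus near that of all genes, and the median log2 fold change was -0.24 for the 10 and -0.03 for all genes. The mice of these genotypes did not overlap for 7 of the 10 genes, against 55.5% of all genes, and 7 of the 10 had an unadjusted p under 0.05, against 54% of all genes. Without cont. mouse 2, 3 of the 10 and 5118 of all 14177 genes tested were called. Without Atg7-KO mouse 3, 3 of the 10 and 4587 of all 14103 were. Without the 3 mice numbered 1, 8 of the 10 and 7649 of all 14060 were, so the calls over all genes moved the same way. Between Atg7-KO;p62T352A and Atg7-KO livers 5 of the 10 were called, *Plin5*, *Cideb*, *Dgat1* and *Dgat2* higher and *Cidec* lower, with 51% of all genes called, 24.7% higher and 26.2% lower. Here 7 of the 10 did not overlap, against 73.2% of all genes, 6 of the 10 had an unadjusted p under 0.05, against 59.7%, and the medians were 0.44 for the 10 and 0.00 for all genes. Upper-quartile normalization and a minimum of 10 counts in every mouse, which drops *Cidec*, each left 3 calls. Over all genes these fits called 7038 of 13922 and 5625 of 11529. Between Atg7-KO;p62T352A and cont. livers edgeR called 0 of the 10 and 11.6% of all genes, 6.25% higher and 5.34% lower. At an unadjusted p under 0.05 there were 4 of the 10 (*Cideb*, *Cidec* and *Pnpla3* higher, *Dgat2* lower) and 28.2% of all genes, DESeq2 called 1, *Dgat2*, and the mice did not overlap for 2 of the 10 (*Cideb* and *Dgat2*) against 26.6% of all genes. The 3 comparisons share mice pair by pair, so their values are given side by side and no relation between them was computed.

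**Figure D3:**
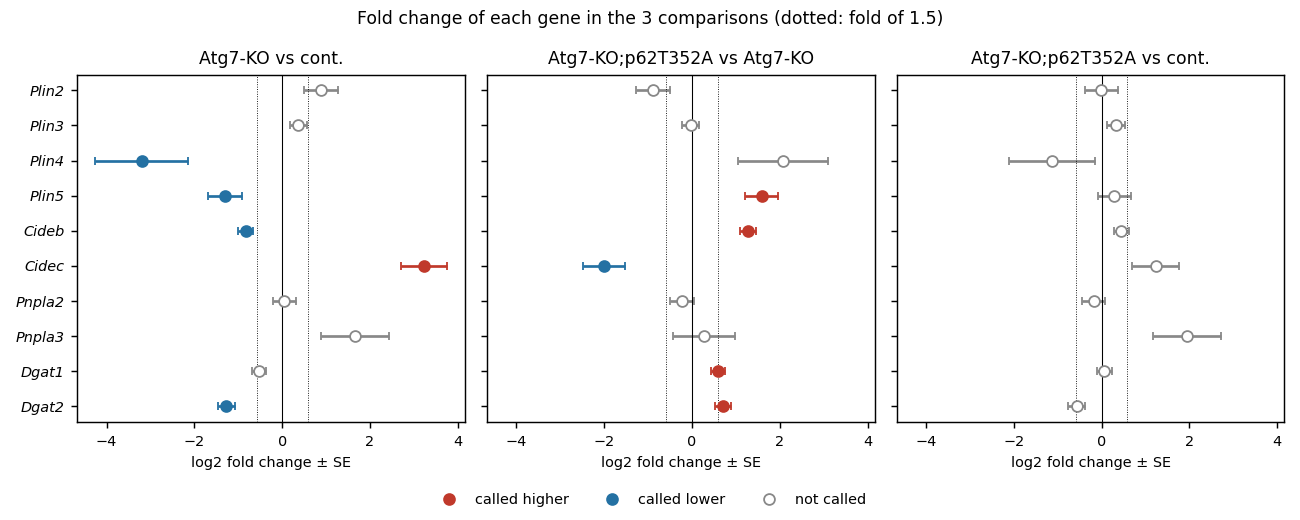
Log2 fold change ± SE of the 10 genes in the 3 comparisons, with filled points for called genes, open points for genes not called and dotted lines at a fold of 1.5. *Plin5*, *Cideb* and *Dgat2* are called lower on the left and higher in the middle, *Cidec* the other way round, and no point is filled on the right.

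The spread among mice differed by genotype. In cont. mice the coefficient of variation of the 10 genes ran from 4.23% (*Cideb*) to 144% (*Plin4*) with a median of 37.5%, in Atg7-KO mice from 2.98% (*Plin2*) to 32.8% (*Pnpla3*) with a median of 9.8%, and in Atg7-KO;p62T352A mice from 5.25% (*Dgat1*) to 109% (*Pnpla3*) with a median of 19.1%. Over all genes the medians were 30.8%, 8.35% and 18.3%, so the order of the genotypes was not particular to these genes. *Plin2* is the clearest case, with an SD of 147 normalized CPM around a mean of 273 in cont. and of 15.0 around 505 in Atg7-KO mice. Leaving out each mouse in turn showed which values rested on 1 mouse. The log2 fold change of *Plin4* between Atg7-KO and cont. ran from -3.77 to -0.65, that of *Plin2* from 0.57 to 1.39 and that of *Plin5* from -1.67 to -0.93, while *Cideb* ran from -0.94 to -0.78 and *Dgat2* from -1.47 to -1.19. In the middle comparison *Plin5* (1.47 to 1.71), *Cideb* (1.19 to 1.37) and *Cidec* (-2.87 to -1.63) were called in all 9 fits.

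**Figure D4:**
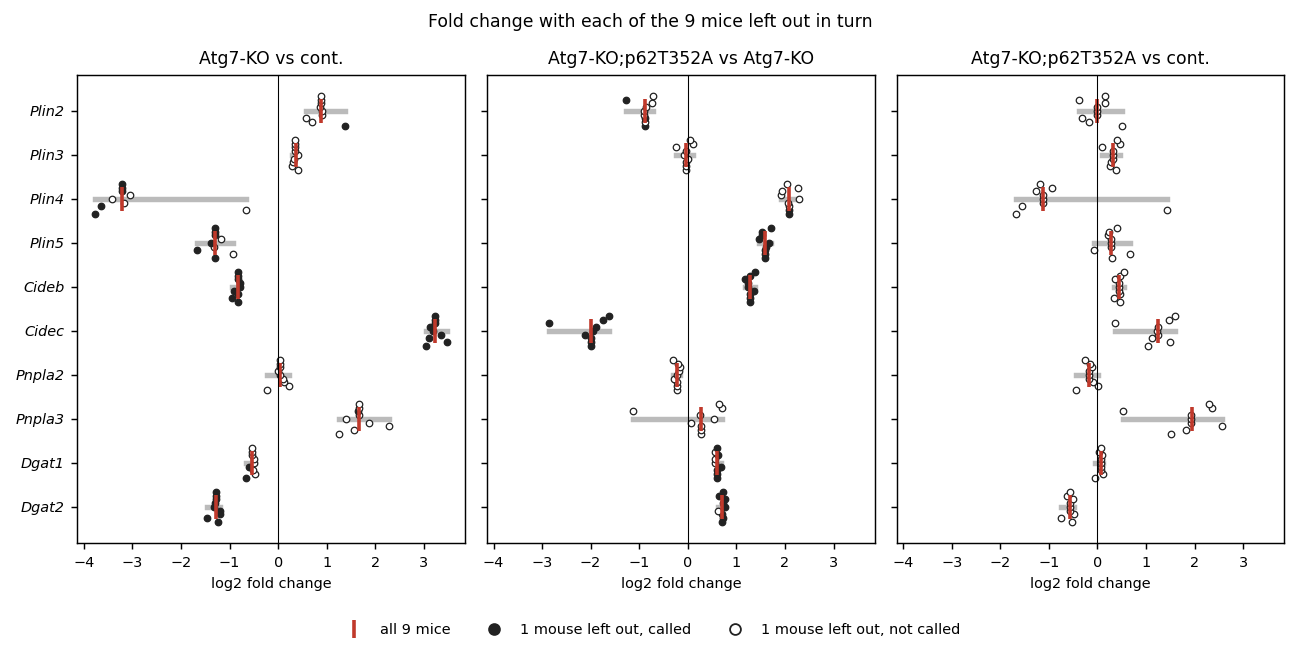
Log2 fold change of each of the 10 genes with 1 of the 9 mice left out at a time, filled where called, beside the value from all 9 mice (red bar). The values of *Cideb*, *Cidec* and *Dgat2* stay close to the red bar on the left, whereas *Plin4* runs from -3.77 to -0.65.

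The wider pathway was read from a list of 53 other genes in 5 roles, of which 51 were tested. *Plin1* and *Cidea*, the coat and fusion genes typical of fat tissue, had 0 to 3 and 0 to 6 counts per mouse and did not pass the filter. Between Atg7-KO and cont. livers 29 of the 51 (56.9%) were called, 13 higher and 16 lower, against 43.7% of all genes. Between Atg7-KO;p62T352A and Atg7-KO livers 27 (52.9%) were called, 15 higher and 12 lower, against 51% of all genes, and between Atg7-KO;p62T352A and cont. livers 6 (11.8%) were, 3 higher and 3 lower, against 11.6%. The shares in both comparisons with Atg7-KO;p62T352A mice were near those of all genes. With 1 mouse left out, the count of 29 ran from 22 to 35 and that of 27 from 24 to 35. All genes called ran from 4587 to 7960 and from 5652 to 8142 in these fits. The last count was 0 in a fit of those genotypes alone, where edgeR called 50 genes in all, and 2 to 11 with 1 mouse left out: 11 without cont. mouse 1, 2 without Atg7-KO;p62T352A mouse 3, and 3 without Atg7-KO;p62T352A mouse 2 or any 1 of the Atg7-KO mice. It was 12 without the 3 mice numbered 1. Over all genes 3245 of 14207 were called without cont. mouse 1 and 435 of 14188 without Atg7-KO;p62T352A mouse 3. Without Atg7-KO;p62T352A mouse 2 it was 972 of 14203, and 750 to 781 without 1 Atg7-KO mouse. Without the 3 mice numbered 1, 2975 of 14060 were called. The pathway count thus moved with the calls over all genes.

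Of 17 genes of glycerolipid synthesis 4 rose and 4 fell in Atg7-KO livers and 9 were not called. *Mogat2*, the monoacylglycerol acyltransferase of the intestine, had 0, 3 and 5 counts in cont. mice against 124 to 155 in Atg7-KO mice and 1 to 11 in Atg7-KO;p62T352A mice. It was the largest rise in the list (log2 fold change 4.67 ± 0.77, adjusted p = 0.00124, a size that depends on the few cont. counts). *Acsl1*, which activates long-chain fatty acids, fell from between 638 and 1449 normalized CPM in cont. to between 219 and 242 in Atg7-KO mice (-2.15 ± 0.29, adjusted p = 0.000411). *Lpin1*, the phosphatidate phosphatase that makes diacylglycerol, was called lower as well (-1.96 ± 0.52, adjusted p = 0.0128), although cont. mouse 1, at 120 normalized CPM, lay among the Atg7-KO mice at 118 to 140. Both were called higher in Atg7-KO;p62T352A than in Atg7-KO mice, at 1.70 ± 0.29 and 2.00 ± 0.52. *Gpam*, the mitochondrial acyltransferase of the first step, stood apart. It was at 38.1 to 144 normalized CPM in cont. and 65.2 to 88.8 in Atg7-KO mice, but at 5.61 to 14.7 in Atg7-KO;p62T352A mice, lower than in cont. by a log2 fold change of -3.24 ± 0.53 (adjusted p = 0.00937) and than in Atg7-KO by -3.13 ± 0.53 (adjusted p = 0.0011). The call against cont. was lost in the fit of those 2 genotypes alone (-3.30, adjusted p = 0.0617).

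All 9 lipolysis genes were called in Atg7-KO livers, 4 higher and 5 lower, where 43.7% of all genes were called. The refits of *Abhd5*, *Lipe*, *Lipa*, *Aadac* and *G0s2* were not read by gene. Of these *Abhd5* (adjusted p = 0.0333) and *Lipe* (adjusted p = 0.0312) were nearest the limit. *Mgll*, which cleaves monoacylglycerol, fell from between 152 and 372 normalized CPM in cont. to between 54.9 and 58.7 in Atg7-KO mice (-2.17 ± 0.31, adjusted p = 0.000519) and was at 360 to 514 in Atg7-KO;p62T352A mice. The carboxylesterase gene *Ces1g* rose from between 117 and 231 to between 577 and 596 normalized CPM (1.86 ± 0.27, adjusted p = 0.00055) and was at 81.9 to 110 in Atg7-KO;p62T352A mice. *Hilpda*, the hypoxia-induced inhibitor of adipose triglyceride lipase, rose from between 1.42 and 1.60 to between 4.73 and 4.86 normalized CPM (1.68 ± 0.23, adjusted p = 0.000494). It was between these at 2.36 to 3.33 in Atg7-KO;p62T352A mice and called against both (0.97 ± 0.24 against cont., adjusted p = 0.031, and -0.71 ± 0.22 against Atg7-KO, adjusted p = 0.0207), calls that were each lost without any 1 of the 3 Atg7-KO mice (adjusted p = 0.0653 to 0.0717 over both), the first also without cont. mouse 2 (0.103) or 3 (0.0565) or Atg7-KO;p62T352A mouse 2 (0.0706) or 3 (0.103), and the second without Atg7-KO;p62T352A mouse 1 (0.0714) and without the 3 mice numbered 1 (-0.58, adjusted p = 0.0722). A fit that adds the mouse number as a term, the replicate block, also ended the call against cont. (0.96, adjusted p = 0.0743). *G0s2*, also on the lipolysis list, went the other way. It fell from between 19.0 and 57.6 normalized CPM in cont. to between 12.1 and 18.3 in Atg7-KO mice (-1.27 ± 0.38, adjusted p = 0.0203). In Atg7-KO;p62T352A mice *G0s2* was at 62.9 to 108, called higher than in Atg7-KO mice (2.49 ± 0.39, adjusted p = 0.00072). *Ces1d*, a triglyceride hydrolase of the endoplasmic reticulum, was at 396 to 842 normalized CPM in cont., 170 to 199 in Atg7-KO mice and 61.0 to 185 in Atg7-KO;p62T352A mice, called lower than cont. in both (-1.64 ± 0.42, adjusted p = 0.0108, and -2.37 ± 0.43, adjusted p = 0.0114). The latter was lost without Atg7-KO;p62T352A mouse 3 (-2.21, adjusted p = 0.0565) and in the fit of those 2 genotypes alone (-2.41, adjusted p = 0.0748).

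Of 11 tested genes of the droplet surface and of droplet formation 1 rose in Atg7-KO livers and 10 were not called. It was *Ldaf1* (listed as *Tmem159*), the partner of seipin in droplet formation, at 1.95 to 2.53 normalized CPM in cont. and 4.35 to 5.38 in Atg7-KO mice (1.10 ± 0.23, adjusted p = 0.00394). *Mettl7b*, a droplet-associated thiol methyltransferase, was at 589 to 721 in cont., 469 to 519 in Atg7-KO and 980 to 1218 normalized CPM in Atg7-KO;p62T352A mice, called higher than in cont. (0.78 ± 0.18, adjusted p = 0.0252). That call was lost without cont. mouse 2 (0.65, adjusted p = 0.0974) and without any 1 of the Atg7-KO or Atg7-KO;p62T352A mice (adjusted p = 0.0536 to 0.0711), without the 3 mice numbered 1 (0.69, adjusted p = 0.0518) and with the replicate block (0.79, adjusted p = 0.0562).

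Of 9 genes of fatty acid uptake and triglyceride export 3 rose and 3 fell. *Lpl*, the lipase that frees fatty acids from circulating lipoproteins, rose from between 19.1 and 32.4 to between 264 and 292 normalized CPM in Atg7-KO mice (3.39 ± 0.27, adjusted p = 3.16e-05). It was at 75.4 to 128 in Atg7-KO;p62T352A mice, with no overlap with either, called lower than Atg7-KO (-1.36 ± 0.25, adjusted p = 0.00181) and higher than cont. (2.04 ± 0.26, adjusted p = 0.0049). The call against cont. was lost in the fit of those 2 genotypes alone (2.00, adjusted p = 0.0522). *Cd36*, the fatty acid translocase, rose from between 29.5 and 52.9 to between 354 and 374 normalized CPM (3.14 ± 0.29, adjusted p = 5.91e-05) and was at 41.0 to 76.3 in Atg7-KO;p62T352A mice. *Lpl* and *Cd36* are also expressed by macrophages, of whose 7 markers 6 were called higher in Atg7-KO than cont. livers and 6 lower in Atg7-KO;p62T352A than Atg7-KO livers. Against cont., where *Lpl* was called higher, 2 of the 7 were called higher in Atg7-KO;p62T352A livers. These were *Trem2* (3.47 ± 0.36, adjusted p = 0.00322) and *Gpnmb* (3.98 ± 0.67, adjusted p = 0.00958), which rest on few cont. counts. Both lay between cont. and Atg7-KO mice, as *Lpl* did. The other 5 were not called, and the median of the 7 was -0.05. The part of macrophages in these values was not tested. *Fabp1*, the liver fatty acid binding protein, fell with a log2 fold change of -1.82 ± 0.30 (adjusted p = 0.00118) and was called higher in Atg7-KO;p62T352A than in Atg7-KO mice (2.46 ± 0.31, adjusted p = 0.000241).

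All 5 regulators passed the call in Atg7-KO livers, 1 higher and 4 lower, beside the 43.7% of all genes. *Nr1h3* was nearest the fold limit (-0.64 ± 0.18, adjusted p = 0.0147), and its refits were not read. *Pparg*, which drives droplet genes in adipocytes and in fatty liver, was at 10.7, 7.66 and 9.34 normalized CPM in cont. mice, 26.6, 26.7 and 29.1 in Atg7-KO mice and 10.1, 6.23 and 7.96 in Atg7-KO;p62T352A mice. The Atg7-KO mice did not overlap either other genotype, and the calls were 1.57 ± 0.21 (adjusted p = 0.000397) and -1.76 ± 0.21 (adjusted p = 0.000206), the directions of *Cidec* above. Of all genes 21.6% were called higher in the first of these comparisons and 26.2% lower in the second. A link between *Pparg* and *Cidec* was not tested. *Ppara*, the regulator of fatty acid oxidation in the fasted liver, was at 184, 252 and 196 normalized CPM in cont., 90.1, 103 and 92.9 in Atg7-KO and 134, 101 and 139 in Atg7-KO;p62T352A mice. It was called lower in Atg7-KO (-1.14 ± 0.19, adjusted p = 0.0014) and in Atg7-KO;p62T352A mice (-0.76 ± 0.19, adjusted p = 0.0346), the second lost without cont. mouse 2 (-0.68, adjusted p = 0.0786) and without any 1 of the Atg7-KO or Atg7-KO;p62T352A mice (adjusted p = 0.0711 to 0.0882) and with the replicate block (-0.75, adjusted p = 0.0777). *Mlxipl*, which codes for the carbohydrate response factor ChREBP, fell most (-3.54 ± 0.60, adjusted p = 0.00137), from 293, 1534 and 1918 normalized CPM in cont. mice to 93.7, 118 and 110, and was called higher in Atg7-KO;p62T352A than in Atg7-KO mice (3.01 ± 0.59, adjusted p = 0.00226). *Srebf1*, the regulator of fatty acid synthesis, fell with a log2 fold change of -1.28 ± 0.30 (adjusted p = 0.00679), from between 270 and 391 to between 134 and 142 normalized CPM.

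**Figure D5:**
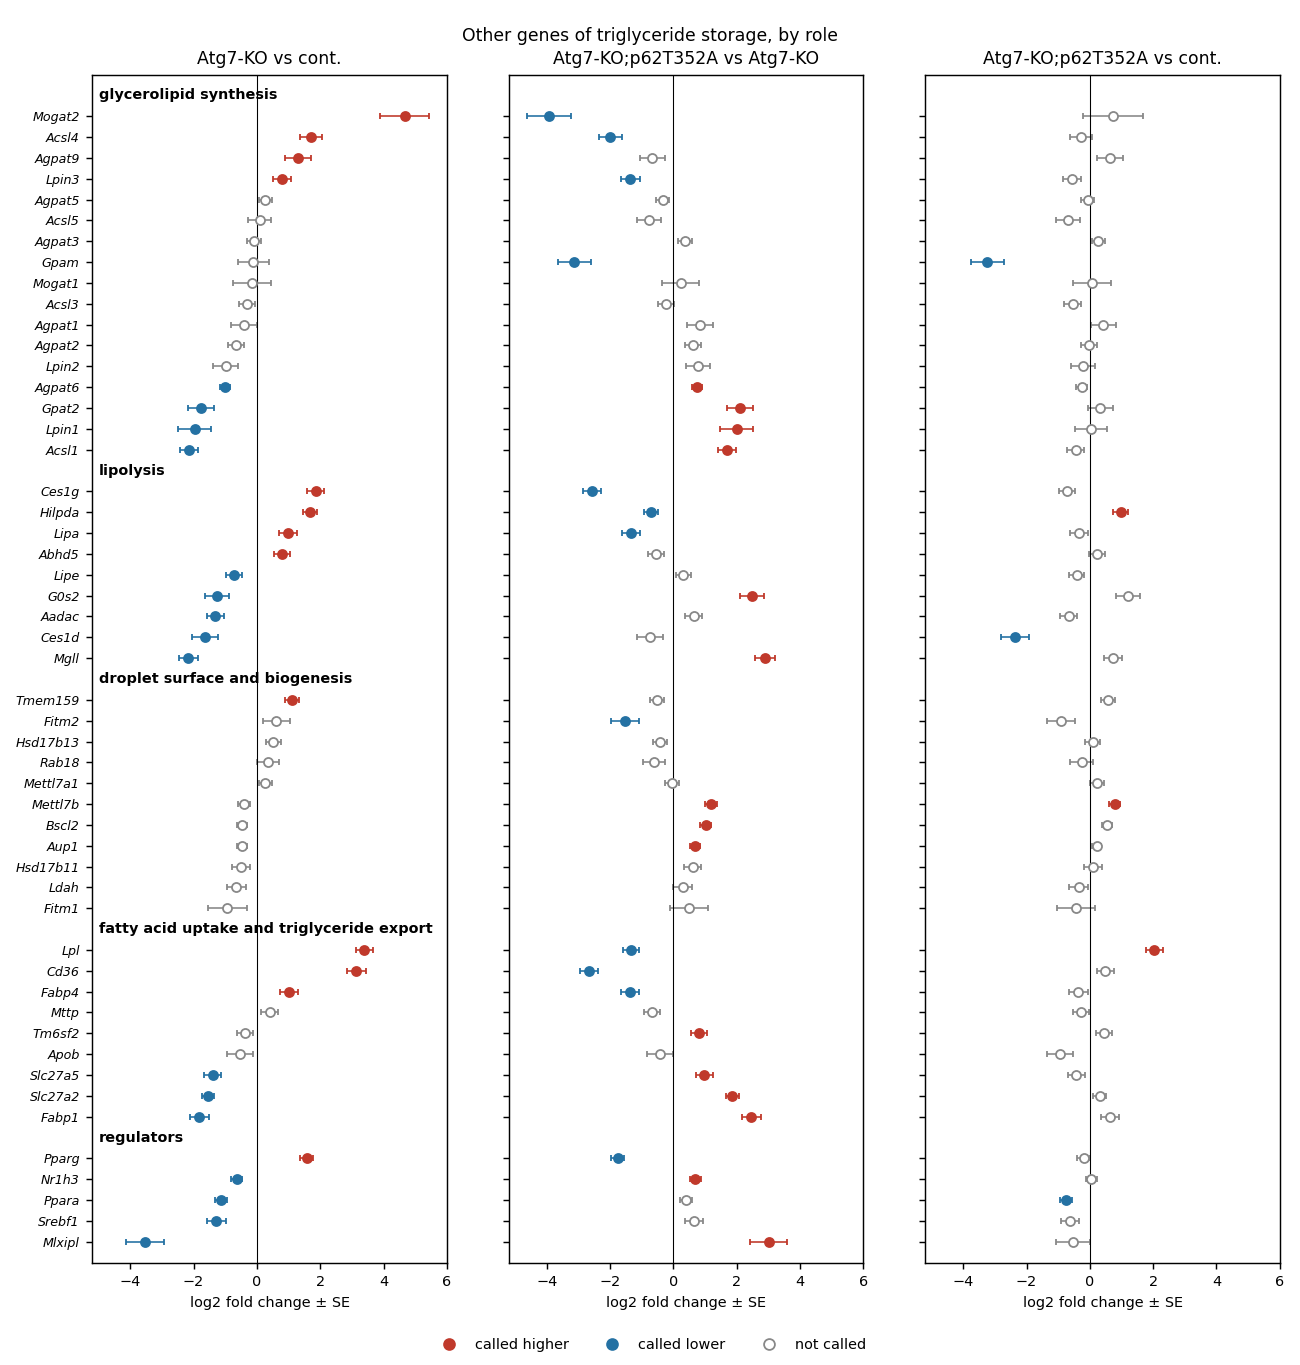
Log2 fold change ± SE of the 51 tested pathway genes, grouped by role and ordered within a role by the comparison of Atg7-KO with cont. livers, with red points for genes called higher, blue for genes called lower and open points for genes not called. All 9 lipolysis genes and all 5 regulators are filled on the left, 1 of 11 droplet surface genes is, and 6 of 51 genes are filled on the right.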

How the data were processed

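The authors read poly(A) libraries of mouse liver single-end over 75 bp, trimmed the reads with Trim Galore, aligned them with STAR to mm10 and estimated gene levels with RSEM. The deposited values are expected counts, 1 column per mouse, without library scaling. Tool versions, the gene annotation and the strand setting were not given in the sources used here. Values were rounded to whole numbers. Columns were assigned by the genotype and mouse number of the labels. Of 12 labelled mice, 3 p62T352A mice were not analysed here.

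Genes were filtered with edgeR 4.0.16 (filterByExpr by genotype), scaled by TMM and fitted over the 3 genotypes in 1 quasi-likelihood model (R 4.3.3), with Benjamini-Hochberg adjustment over 13922 genes and calls at adjusted p under 0.05 and a fold over 1.5. Intervals and SE of log2 fold changes came from the quasi-likelihood F statistic. Exon lengths and positions were those of GENCODE vM21 on GRCm38, and promoters those of RefSeq on GRCm38.p6, which held 8 of the 10 genes. Shared 75-base stretches between transcripts were 0.83% of *Plin2* (with Gm12551), 2.18% of *Pnpla3* (with Gm49513) and 0 of the other 8 genes. The genes and lists were chosen with earlier results of these data known. Pathway genes named were, per role, the 3 largest called changes between Atg7-KO and cont. and the 2 largest between Atg7-KO;p62T352A and cont., with *Plin1*, *Cidea*, *Pparg* and *Ppara* always, and for each of the 10 genes called at least once, the 2 most correlated genes. *G0s2*, beside *Hilpda*, and *Abhd5*, *Lipe*, *Lipa*, *Aadac* and *Nr1h3* were named outside this rule. Their refits were not read gene by gene. *Gpat3*, *Gpat4* and *Ldaf1* were listed as *Agpat9*, *Agpat6* and *Tmem159*. Mice of 1 genotype differed by more than counting noise (chi-square per degree of freedom 13.9 to 296). The labels number mice within a genotype. The p-values test a difference between genotypes against the spread among mice. That spread was estimated over the 3 genotypes together, although it differed by genotype. Alternatives were DESeq2 1.42.0, other scalings, filters and thresholds, a replicate block, 2 genotypes alone, each mouse left out and the mice numbered 1 left out. The steps were run on simulated counts in which some genes changed well past the fold threshold and all genes and groups had the same spread. That run does not test calls near the threshold or groups that differ in spread.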

Additional observations from a re-analysis of the deposited data

How the results depend on the processing

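Of 537 refits of the 10 genes' changes, 483 kept direction and call, 19 lost the call, 16 gained it and 19 changed sign. Of 700 refits of 39 called changes of 19 other named genes, 653 kept the call and 47 lost it, with no change of sign. In these refits *Cideb* and *Cidec* kept both calls, as did *Dgat2* between Atg7-KO and cont. and *Plin5* between Atg7-KO;p62T352A and Atg7-KO. Under glmTreat calls were counted and not given by gene. The minimum of 10 counts in every mouse left out *Cidec*, so it gave no value there.

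For Atg7-KO against cont., where 5 of the 10 passed, the count was 8 without the 3 mice numbered 1, 2 under glmTreat and 3 to 7 with 1 mouse left out. All genes called there (6080) were 7649, 3855 and 4587 to 7960 in the same order. Between Atg7-KO;p62T352A and Atg7-KO (5) the count was 3 under upper-quartile normalization, with at least 10 counts and under glmTreat, and 4 to 7 with 1 mouse left out. All genes called there (7095) were 7038, 5625, 4718 and 5652 to 8142 in the same order. For Atg7-KO;p62T352A against cont. (0) the count was 1 with DESeq2, which called 2210 genes in all. The 6 pathway genes called there were 0 with 2 genotypes alone, 12 without the 3 mice numbered 1, 3 under glmTreat and 2 to 11 with 1 mouse left out. All genes called there (1613) were 50 with 2 genotypes alone, 253 under glmTreat and 988 with the block. They were 2975 without the 3 mice numbered 1 and 435 to 3245 with 1 mouse left out.

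Without the 3 mice numbered 1, sign changed for *Pnpla2* between Atg7-KO and cont. (0.05 to -0.17), *Pnpla3* between Atg7-KO;p62T352A and Atg7-KO (0.28 to -1.35), and *Plin2* (-0.0023 to 0.65) and *Dgat1* (0.06 to -0.0231) between Atg7-KO;p62T352A and cont. *Plin2* there was also 0.0095 with at least 10 counts. With 1 mouse left out, signs changed within -0.23 to 0.22 (*Pnpla2*, Atg7-KO against cont.), -0.25 to 0.11 (*Plin3*) and -1.14 to 0.71 (*Pnpla3*) between Atg7-KO;p62T352A and Atg7-KO, and, against cont., -0.39 to 0.50 (*Plin2*), -1.69 to 1.43 (*Plin4*), -0.0758 to 0.66 (*Plin5*), -0.45 to 0.0065 (*Pnpla2*) and -0.0557 to 0.12 (*Dgat1*). The causes were not tested. Upper-quartile normalization moved the median of all genes to 0.08 and -0.14 in the first 2 comparisons.

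The labels do not say what a mouse number stands for. The deviations of same-numbered mice correlated by -0.202 to 0.321 (mean 0.146), over 0.1 in 6 of 9 pairs. Those of differently numbered mice had a mean of -0.0705, with 4 of 18 pairs over 0.1. The 3 pairs of mice numbered 1, which also share the low *Xist* level, were all over 0.1 (0.137 to 0.271). So were the 3 pairs numbered 3 (0.181 to 0.321), and no pair numbered 2 was (-0.202 to 0.0926). Since not every same-numbered pair was over 0.1, the numbers were not taken to pair the mice in the main fit. With the higher mean of same-numbered pairs, that rule cannot show that the mice were not paired by number. With that number as a block in the fit (a replicate block), 4, 5 and 0 of the 10 genes and 28, 29 and 4 pathway genes were called in the 3 comparisons, *Plin4* was not called between Atg7-KO and cont. (-2.40), *Hilpda* (0.96), *Mettl7b* (0.79) and *Ppara* (-0.75) were not called between Atg7-KO;p62T352A and cont., and *Plin2* between Atg7-KO;p62T352A and cont. was 0.0443. Over all genes the fit with the block called 5753, 6994 and 988 of 13922 in the 3 comparisons. A family share by the longest transcript, chosen after seeing the data, moved by more than 1 SD for *Plin2* in Atg7-KO (90.2%) and Atg7-KO;p62T352A mice (72.0%) and for *Dgat2* in Atg7-KO;p62T352A mice (92.5%). Counts per mouse limit *Cidec* and *Pnpla3* most.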

Other observations

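Across the 9 mice, the genes whose log2 CPM (prior count 2) followed each called gene most closely were named by Pearson's r, as a description without a test, since the points share genotype and library depth. *Cideb* was followed most closely by *Azgp1* (r = 0.99, n = 9 mice) and *9330162012Rik* (0.989), *Dgat2* by *Gas1* (0.994) and *1810046K07Rik* (0.987), and *Dgat1* by *Cyp4f13* (0.984) and *Rmnd5b* (0.982). *Cidec* was followed by *Gal3st1* (0.977) and *Synj2* (0.97), *Plin5* by *Pus3* (0.969) and *Fam204a* (0.961), and *Plin4* by *Kdelc1* and *Eppk1* (both 0.966). None of these 12 genes was on the pathway list. The 10 genes described here were left out of this search, so it does not show whether they followed each other.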
